A study of Drosophila sechellia and Drosophila melanogaster and Drosophila simulans with 18 samples.

Results

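The glutathione S-transferase (*Gst*) and UDP-glycosyltransferase (*Ugt*) genes were compared between food with hexanoic acid (HA) and control food in 3 *Drosophila* species. The members were all genes whose symbol, after removal of the species prefix, begins with *Gst* and a capital letter or with *Ugt* and a digit. This rule used no measured value and found 54 of the 50294 genes in the gene tables, 52 of them in *D. melanogaster* (35 *Gst* and 17 *Ugt* genes of 17649), 1 in *D. simulans* (of 15372) and 1 in *D. sechellia* (of 17273). The last 2 tables list most genes by GD or GM numbers only, and such genes were not assigned to the families here, so nearly all results are for *D. melanogaster*. The HA groups were whole adult females, 0 to 3 days after eclosion, that had fed for 24 h on instant food with 0.23% HA, and the control groups had fed on the same food without HA. One strain per species was used (*D. melanogaster* 14021-0231.36, *D. simulans* 14021-0251.195 and *D. sechellia* 14021-0428.25), reared at 20°C, with 3 RNA-seq libraries for each of the 6 groups, 18 in all, and each library was made from a pool of whole flies.

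Both enzyme families attach a polar group to a reactive or fat-soluble molecule, which makes it easier to excrete. Glutathione S-transferases add the tripeptide glutathione, and the UDP-glycosyltransferases of insects add glucose from UDP-glucose. The delta (*GstD*) and epsilon (*GstE*) classes are particular to arthropods, have expanded by tandem duplication and are known for the metabolism of insecticides and plant toxins, whereas the omega (*GstO*), sigma (*GstS*), theta (*GstT*) and zeta (*GstZ*) classes are shared with many other animals. In flies these genes are known for expression in the gut, the Malpighian tubules, the fat body and the antennae.

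The gene tables hold, for each gene and diet, 1 FPKM value (fragments counted, scaled for transcript length and library size) that was pooled over the 3 libraries. Values of single libraries are not part of these tables. Neither an SD nor an interval over libraries was therefore computed, and no test was run; the authors' own test columns in the tables were not used. A difference between the diets below is a difference between 2 pooled values whose replicate error is unknown. A gene was taken as measured where its mean over both diets was at least 1 FPKM, and its difference is given as the log2 ratio of HA over control after adding 0.1 FPKM to each value. For *D. melanogaster* 10427 genes were measured, with a median log2 ratio of 0.00, a 5th percentile of -0.64 and a 95th percentile of 0.36. A ratio of 1.5-fold was used as the size limit for single genes. Sex markers were as labelled: the yolk protein genes *Yp1*, *Yp2* and *Yp3* had 4202 to 9099 FPKM on HA food and 4199 to 8392 FPKM on control food, and the male accessory gland genes *SP* and *Acp36DE* were listed at 0 on both diets. The other male markers were under 1 FPKM but not at 0. *Acp26Aa* had 0.157 FPKM on HA food and 0.0817 FPKM on control food, and *Mst87F* had 0.446 FPKM on HA food and 0.602 FPKM on control food.

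In *D. melanogaster* most conjugating enzyme genes had nearly the same level on both diets, and those that stood further apart were lower on HA food. Of the 52 members 44 were measured (34 *Gst* and 10 *Ugt* genes), and 31 of the 44 differed by less than 0.32 on the log2 scale. The other 13 were all lower on HA food by at least that much, which is 29.5% of the measured members, and no measured member was higher by as much. Of these 13, 7 were among the 12 measured members with a mean under 5 FPKM, and 6 were among the 32 with 5 FPKM or more. Over all measured genes 16.9% were lower and 7.39% higher by this limit. At the limit of 1.5-fold, 2 members were lower, *GstD11* and *Ugt86Dd* (4.55% of 44), and none was higher, beside 6.06% of all measured genes that were lower and 1.93% that were higher. The median log2 ratio was -0.09 over the *Gst* genes and -0.29 over the *Ugt* genes, beside 0.00 over all genes. Summed over the measured members, the *Gst* genes had 2969 FPKM on HA food and 3195 FPKM on control food, and the *Ugt* genes had 114 FPKM on HA food and 130 FPKM on control food.

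**Figure D1:**
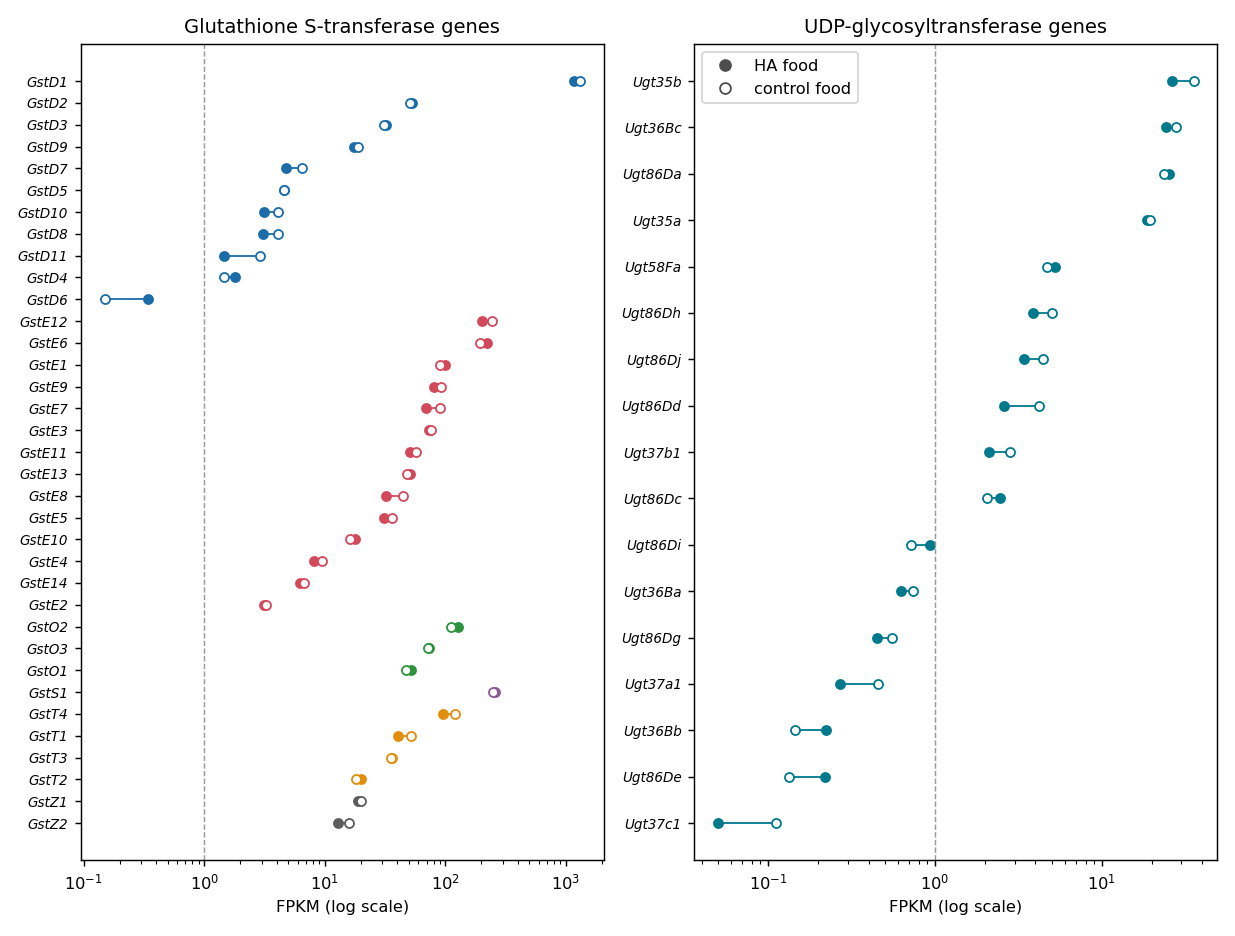
FPKM of all 52 members in *D. melanogaster* on a log scale, with HA food as filled and control food as open circles, 1 pooled value per diet. Genes are grouped by class (colors) and ordered by mean level, and the dashed line marks 1 FPKM, under which 8 members lie; the widest gap among the others is that of *GstD11*.

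The delta class is led by *GstD1*, an enzyme known to dehydrochlorinate DDT. It had 1161 FPKM on HA food and 1317 FPKM on control food (log2 ratio -0.18) and ranked 167th of the 10427 measured genes. It made up 39.1% of the summed *Gst* FPKM on HA food and 41.2% on control food. Without it the sums of the other measured *Gst* genes were 1808 FPKM on HA food and 1878 FPKM on control food, so most of the difference in the family sum lay in this gene. The ratio of the sums, HA over control, was 0.929 with *GstD1* and 0.962 without it, beside 0.965 for the sums over all measured genes. The next members by level did not share its direction: *GstD2* had 53.2 FPKM on HA and 51.5 FPKM on control food, and *GstD3* had 32.2 FPKM on HA and 31.3 FPKM on control food.

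The lower values of the class were found among its weakly expressed genes. *GstD11* (FBgn0038029) had 1.45 FPKM on HA food and 2.89 FPKM on control food, a log2 ratio of -0.95 and the lowest of any member, at percentile 1.96 of all measured genes. *GstD7* (4.78 FPKM on HA, 6.45 FPKM on control food), *GstD8* (3.10 FPKM on HA, 4.08 FPKM on control food) and *GstD10* (3.12 FPKM on HA, 4.12 FPKM on control food) had log2 ratios of -0.42, -0.38 and -0.39. The highest log2 ratio of any measured member was that of *GstD4*, which had 1.79 FPKM on HA food and 1.45 FPKM on control food (log2 ratio 0.29). *GstD5* (log2 ratio -0.02) and *GstD9* (log2 ratio -0.11) were close to equal on both diets, and *GstD6* was under the minimum. In all, 7 of the 10 measured delta genes were lower and 3 higher on HA food, with a median log2 ratio of -0.15, and only *GstD11* passed 1.5-fold.

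The epsilon class has 14 genes, all measured, of which 10 were lower and 4 higher on HA food (median log2 ratio -0.14), none of them by 1.5-fold. *GstE12* had the highest mean over both diets, with 202.5 FPKM on HA food and 247 FPKM on control food (log2 ratio -0.28). *GstE8* had the lowest ratio, with 32.2 FPKM on HA food and 44.4 FPKM on control food (log2 ratio -0.46). At 1.38-fold lower it had the lowest ratio of the measured *Gst* genes that did not pass 1.5-fold. Its neighbor *GstE7* had 69.9 FPKM on HA food and 90.2 FPKM on control food (log2 ratio -0.37). The next gene on that side, *GstE6*, was the strongest of the class in the other direction, with 223 FPKM on HA food, above *GstE12* on that diet, and 194 FPKM on control food (log2 ratio 0.20). *GstE1*, *GstE10* and *GstE13* were the other 3 genes with a higher value on HA food, at log2 ratios of 0.14, 0.14 and 0.07. *GstE14*, which acts in the prothoracic gland in ecdysteroid synthesis under the name Noppera-bo, had 6.26 FPKM on HA and 6.80 FPKM on control food.

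The smaller classes differed in direction, and the theta class was divided within itself. All 3 omega genes were slightly higher on HA food: *GstO2* had 128 FPKM on HA food and 113 FPKM on control food (log2 ratio 0.18), *GstO1* had 52.3 and 47.4 FPKM on HA and control food (log2 ratio 0.14), and *GstO3* had 73.9 and 71.3 FPKM on HA and control food (log2 ratio 0.05). These are small differences, within the range of most genes, and none reached 0.32. *GstS1*, the only sigma gene, whose protein is abundant in flight muscle and conjugates products of lipid peroxidation, had 257 FPKM on HA food and 248 FPKM on control food (log2 ratio 0.06). Of 3 flight muscle markers, *Act88F* and *Mlc2* had log2 ratios of 0.05 and 0.06, and *TpnC4* had 761 FPKM on HA food and 1209 FPKM on control food (log2 ratio -0.67). In the theta class, *GstT4* (95.7 FPKM on HA, 120 FPKM on control food; log2 ratio -0.33) and *GstT1* (40.8 FPKM on HA, 52.3 FPKM on control food; log2 ratio -0.36) were lower, while *GstT2* (log2 ratio 0.14) and *GstT3* (log2 ratio 0.02) were not. Both zeta genes, whose enzymes belong to the breakdown of tyrosine as maleylacetoacetate isomerases, were lower on HA food. *GstZ1* had 19.0 FPKM on HA and 20.0 FPKM on control food (log2 ratio -0.08), and *GstZ2* had 12.9 FPKM on HA and 15.9 FPKM on control food (log2 ratio -0.30).

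The *Ugt* genes were expressed at lower levels than the *Gst* genes, with only 10 of 17 measured and a median mean level of 4.72 FPKM, beside 37.1 FPKM for the *Gst* genes. *Ugt86Dd* (FBgn0040256; reference symbol *Ugt35C1*), a gene linked to nicotine resistance in *D. melanogaster*, had 2.60 FPKM on HA food and 4.21 FPKM on control food (log2 ratio -0.68, percentile 4.42 of all measured genes). *Ugt35b* had the highest level of the family and was lower as well, with 26.3 FPKM on HA food and 35.5 FPKM on control food (log2 ratio -0.43). Its neighbor *Ugt35a* had almost equal values, 18.7 FPKM on HA food and 19.4 FPKM on control food. *Ugt86Dj*, *Ugt86Dh* and *Ugt37b1* had log2 ratios of -0.38, -0.37 and -0.39 at mean levels of 2.45 to 4.46 FPKM, and *Ugt36Bc* had a log2 ratio of -0.21 at 24.3 FPKM on HA food and 28.0 FPKM on control food. On the other side were *Ugt86Dc* (2.45 FPKM on HA, 2.04 FPKM on control food; log2 ratio 0.26), *Ugt58Fa* (log2 ratio 0.16) and *Ugt86Da* (25.4 FPKM on HA, 23.7 FPKM on control food; log2 ratio 0.10).

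The reference annotation gives a *Ugt* symbol to 18 further genes that the table lists under other names, 17 of them by CG number, and 13 of these were measured. Of the 13, 9 were lower and 4 higher on HA food, with a median log2 ratio of -0.16. At least 1.5-fold lower were *CG5724* (*Ugt37A2*; 1.13 FPKM on HA, 2.48 FPKM on control food; log2 ratio -1.07), *CG16732* (*Ugt303B1*; 1.42 FPKM on HA, 2.52 FPKM on control food; log2 ratio -0.78) and *CG10170* (*Ugt303B3*; 2.17 FPKM on HA, 3.43 FPKM on control food; log2 ratio -0.64). *CG16732* and *CG10170* lie next to each other on chromosome 3R, and *CG5724* lies next to *CG5999* (*Ugt37A3*), whose log2 ratio was -0.51. The strongest of the 13, *CG17323* (*Ugt36D1*), had 24.7 FPKM on HA food and 27.5 FPKM on control food. *Dot* (*Ugt36A1*), known for expression in cells near the heart and in blood-forming tissue, had 4.04 FPKM on HA food and 3.81 FPKM on control food. With both sets of names together, 4 of 23 measured *Ugt* genes were at least 1.5-fold lower, none was higher by that much, and the median log2 ratio was -0.21. All 4 were among the 14 of these 23 genes with means under 5 FPKM. At that level 10.6% of all genes were at least 1.5-fold lower, beside 6.06% of genes at any level. With a pseudocount of 1 FPKM the count was 1, and with a minimum mean of 5 FPKM it was 0.

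**Figure D2:**
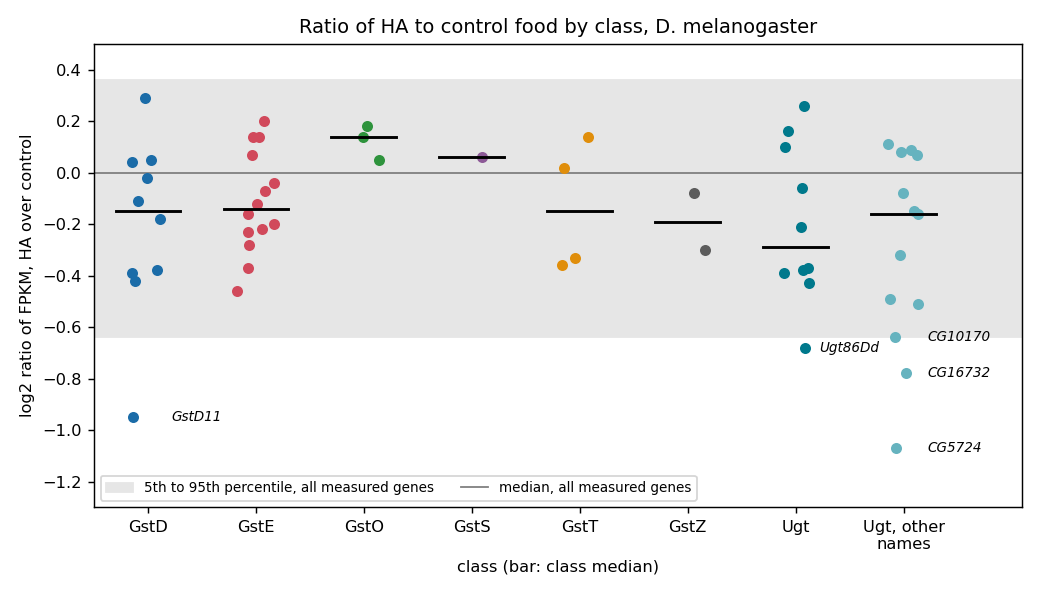
Log2 ratio of HA over control FPKM of each measured member in *D. melanogaster* by class, with the 13 measured *Ugt* genes listed under other names at the right. Horizontal bars are class medians, the gray band spans the 5th to 95th percentile of all 10427 measured genes (-0.64 to 0.36), and genes at least 1.5-fold lower are named; no point lies above the band.

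All members past 1.5-fold had means under 5 FPKM, and ratios spread most at the lowest levels of this table. The 5th percentile of the log2 ratio over all genes was -1.12 at 1 to 2 FPKM. It was -0.75 at 2 to 5 FPKM, where *GstD11*, *Ugt86Dd* and 11 of the 12 weaker members lie, and -0.68 at 5 to 10 FPKM. Of the 12 measured members with a mean under 5 FPKM, 2 were at least 1.5-fold lower (16.7%), beside 10.6% of all genes at that level, and none was higher, beside 4.37% of all genes at that level. Of the 32 members with 5 FPKM or more none passed the limit, whereas among all genes at that level 4.90% were at least 1.5-fold lower and 1.30% at least 1.5-fold higher. The median log2 ratio was -0.37 for the 12 weaker members and -0.09 for the 32 stronger ones, beside -0.07 and 0.02 over all genes of those levels. When each member was set against all genes of its own level range, only *GstD11* lay below the 5th percentile, none lay above the 95th, and 26 of 44 lay below the median. Across the 44 genes the log2 ratio and the log2 mean level had a Pearson r of 0.25 and a Spearman rho of 0.24, which is a description across genes that share the same pooled libraries. The 6 members with a mean of at least 100 FPKM (*GstD1*, *GstS1*, *GstE12*, *GstE6*, *GstO2* and *GstT4*) had log2 ratios between -0.33 and 0.20.

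**Figure D3:**
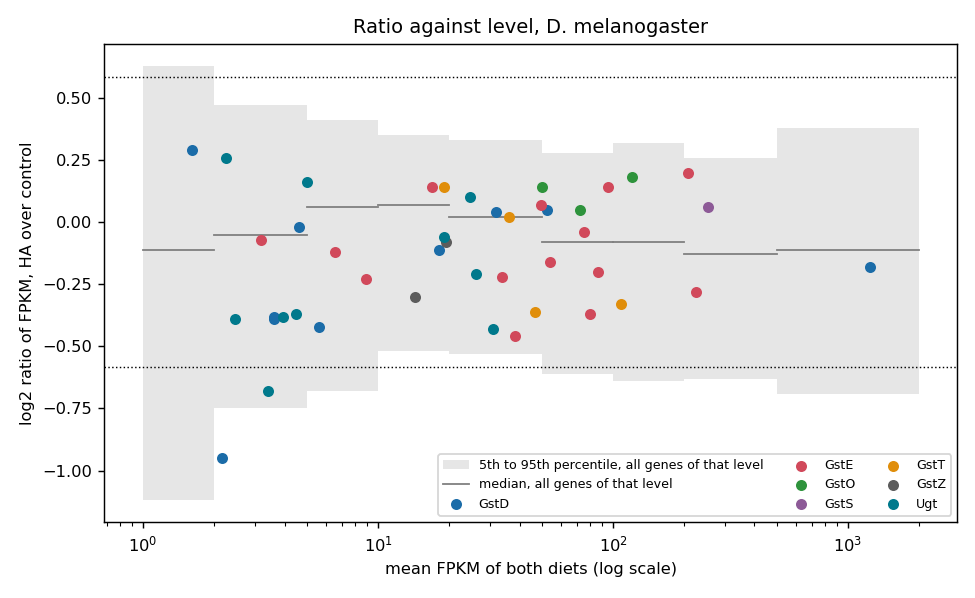
Log2 ratio of HA over control FPKM of the 44 measured members (colored by class) against their mean FPKM over both diets on a log scale. Gray boxes span the 5th to 95th percentile of all measured genes in each level range, gray lines are their medians, and dotted lines mark 1.5-fold; the 2 points below the lower dotted line have means of 2.17 and 3.40 FPKM.

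The members lie mostly in tandem arrays, 23 of the 52 on chromosome 3R and 19 on 2R of the BDGP6 genome. All 11 delta genes lie within 20.8 kb (3R, 12364776 to 12385624), 10 epsilon genes within 24.5 kb (2R, 18396638 to 18421124), the 3 omega genes within 5.98 kb (3L, 8518885 to 8524866) and 9 *Ugt* genes within 26.9 kb (3R, 11151026 to 11177910). The epsilon span ends with the locus that *GstE9* shares with *imd* and *Dp1* (18409048 to 18421124), so it may overstate the extent of that array. Neighboring genes of an array did not share one ratio. In the delta array, *GstD2* to *GstD5* in the middle had log2 ratios of -0.02 to 0.29, while *GstD7*, *GstD8* and *GstD11* at one end had -0.95 to -0.38 and *GstD10*, *GstD9* and *GstD1* at the other end had -0.39 to -0.11. In the epsilon array *GstE4* to *GstE9* had log2 ratios of -0.46 to -0.20, with *GstE6* at 0.20 as the exception. In the *Ugt* array *Ugt86Dc* and *Ugt86Da* were above 0, and *Ugt35b*, *Ugt35a*, *Ugt86Dj* and *Ugt86Dh* were below 0. The medians were alike for the 30 measured members inside arrays of 3 or more (log2 ratio -0.09) and the 14 outside (log2 ratio -0.14).

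**Figure D4:**
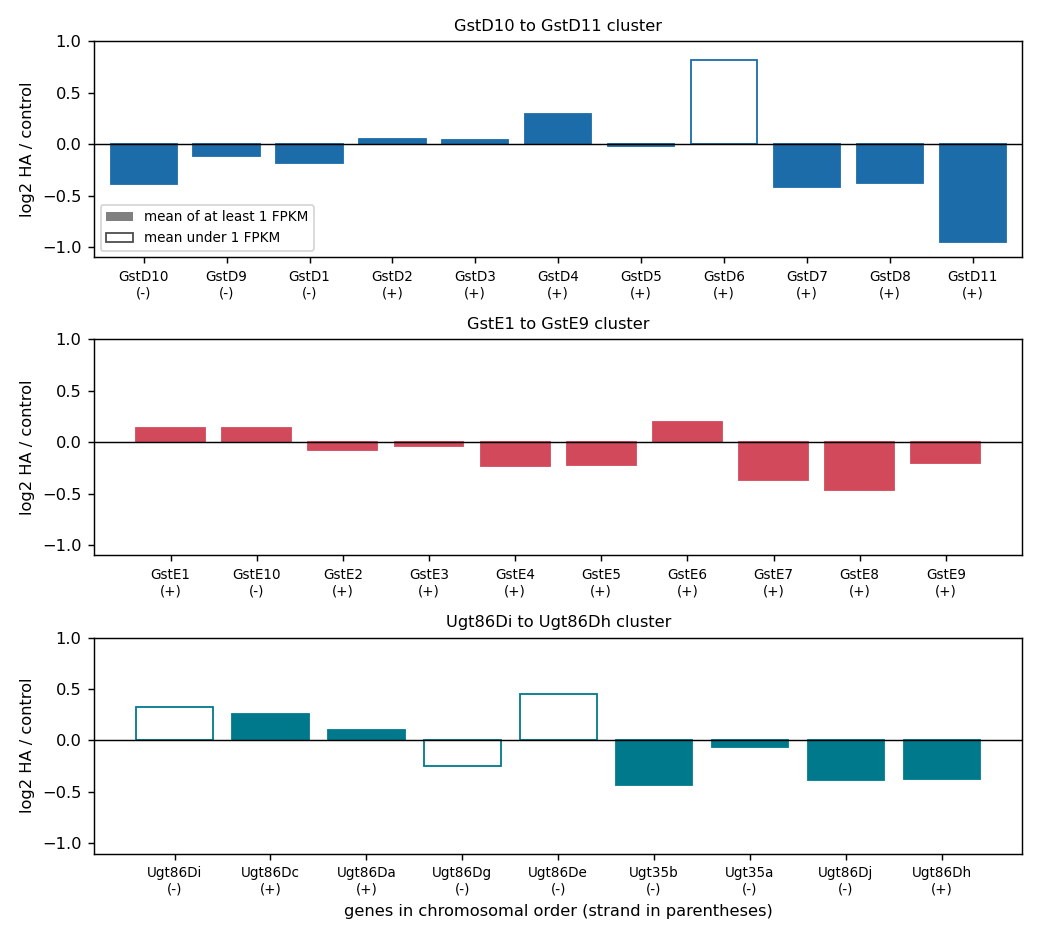
Log2 ratio of HA over control FPKM for the genes of the 3 largest arrays, in chromosomal order with their strand. Filled bars are genes with a mean of at least 1 FPKM and open bars those under it; *GstD11* has the longest bar, *GstD6* (open) the longest above 0, and *GstE6* is the only bar above 0 between *GstE4* and *GstE9*.

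Gene structure and overlap were compared as well. A single exon is annotated for *GstD2* to *GstD8* and *GstE1* to *GstE9*. Their 15 measured genes had a median log2 ratio of -0.07, beside -0.11 for the 19 *Gst* genes with more exons. Tandem copies are alike in sequence, so short reads may have been divided between them. In the table *GstE1* and *GstE10* share 1 locus, *GstE9* shares its locus with *imd* and *Dp1*, and *GstE12*, *GstE13*, *GstO2* and *GstT2* each share theirs with 1 other gene (7 members in all), so reads of overlapping genes could have been mixed. Without the members at shared loci the median log2 ratio was -0.12 for the *Gst* genes and -0.29 for the *Ugt* genes. *GstD11* and *Ugt86Dd* have loci of their own.

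The genes that supply and control these enzymes were mostly level. Of the 7 genes of glutathione and thioredoxin supply 5 were lower and 2 higher on HA food, all by less than 0.32 on the log2 scale (median log2 ratio -0.11). *Gclc*, the catalytic subunit of the first step of glutathione synthesis, had 28.2 FPKM on HA food and 32.5 FPKM on control food (log2 ratio -0.20), and its modifier subunit *Gclm* had 128 FPKM on HA food and 127 FPKM on control food. *Trxr-1*, the thioredoxin reductase that takes the place of glutathione reductase in flies, had 181 FPKM on HA food and 158 FPKM on control food (log2 ratio 0.19), the highest ratio of the list, and the strongest gene of the list, *Trx-2*, had 456 FPKM on HA food and 493 FPKM on control food. For UDP-glucose, *UGP*, which makes it, had 147 FPKM on HA food and 161 FPKM on control food, and *sgl*, which oxidizes it, had 34.0 FPKM on HA food and 31.1 FPKM on control food. *MRP*, an ATP-driven exporter of conjugates, had 14.9 FPKM on both diets.

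Among the regulators, *maf-S* stood apart from the other 3. The product of *maf-S* is the DNA-binding partner of CncC, the fly counterpart of Nrf2 that drives detoxification genes and is made from the *cnc* gene. *maf-S* had 105 FPKM on HA food and 157 FPKM on control food (log2 ratio -0.58, percentile 6.26 of all measured genes), just under 1.5-fold. *cnc* had 49.9 FPKM on HA food and 48.4 FPKM on control food, *Keap1*, which holds CncC back, had 3.73 FPKM on HA food and 3.36 FPKM on control food, and the xenobiotic nuclear receptor gene *Hr96* had 12.1 FPKM on HA food and 11.7 FPKM on control food. Of 7 further genes with a domain of the glutathione S-transferase fold, 3 were lower and 4 higher on HA food. The highest of them was *eEF1gamma*, a subunit of a translation elongation factor, with 1474 FPKM on HA food and 1146 FPKM on control food (log2 ratio 0.36). *se*, an omega-class gene named for its eye color mutant and not matched by the symbol rule, had 8.50 FPKM on HA food and 8.86 FPKM on control food.

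**Figure D5:**
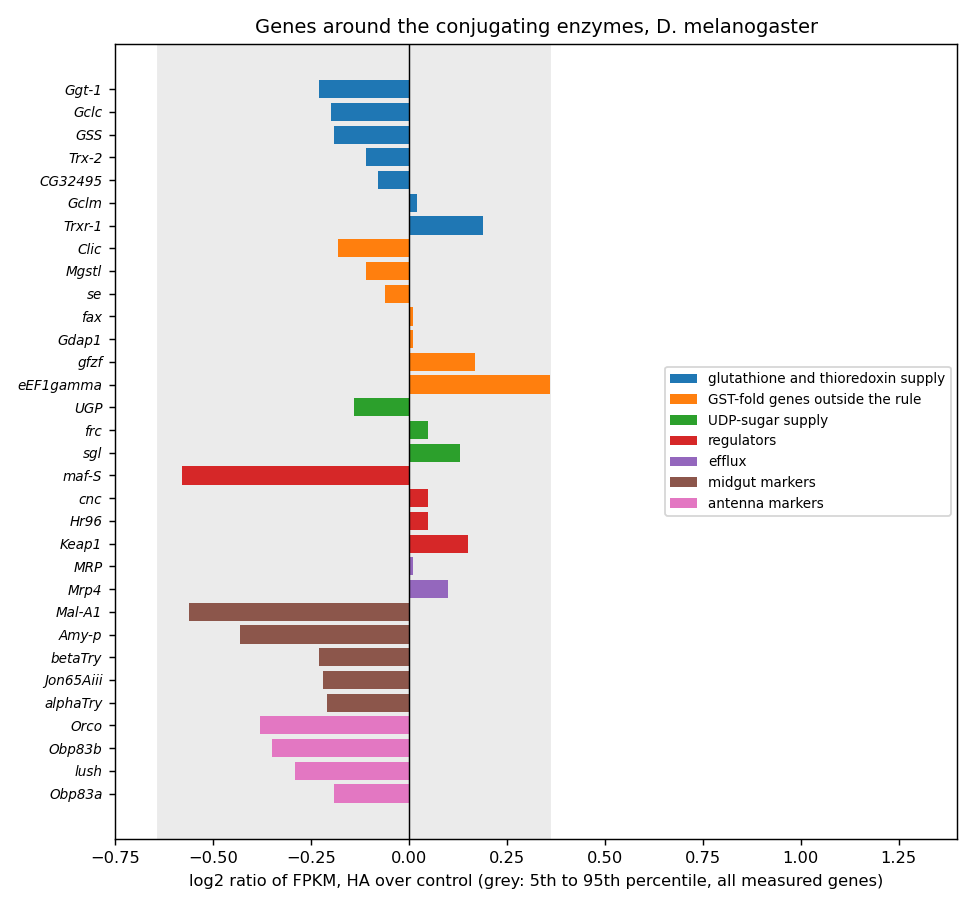
Log2 ratio of HA over control FPKM for genes of glutathione, thioredoxin and UDP-sugar supply, other genes of the glutathione S-transferase fold, regulators and exporters, with midgut and antenna markers below. The gray band spans the 5th to 95th percentile of all measured genes. *maf-S* has the lowest ratio of all bars, and the 5 midgut and 4 antenna markers are all below 0. Markers of the other tissues are not drawn. Among them *Uro* (log2 ratio 0.37) and 4 of 6 ovary markers were higher on HA food, and 2 of 3 fat body markers were lower. Of the flight muscle markers, *TpnC4* was at least 1.5-fold lower (log2 ratio -0.67), and *Act88F* and *Mlc2* had log2 ratios of 0.05 and 0.06.

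Markers of tissues in which these enzymes are known to be made also differed between the diets, but none of those below passed 1.5-fold. The flight muscle marker *TpnC4*, given above beside *GstS1*, was lower by more than that (log2 ratio -0.67), while *Act88F* and *Mlc2* were nearly level (0.05 and 0.06). By at least 0.32 on the log2 scale, 2 of the 5 midgut, 2 of the 4 antenna and 1 of the 6 ovary markers were lower, and *Uro* was higher. In bulk samples of whole flies, fewer cells of a type and less RNA per cell cannot be told apart. All 5 midgut markers were lower on HA food, with log2 ratios between -0.56 (*Mal-A1*) and -0.21 (*alphaTry*), and their summed level was 4383 FPKM on HA food and 5166 FPKM on control food. All 4 antenna markers were lower, between -0.38 (*Orco*) and -0.19 (*Obp83a*), with sums of 59.2 FPKM on HA food and 72.3 FPKM on control food. Of the 3 fat body markers 2 were lower and 1 was higher (summed level 220 FPKM on HA food and 236 FPKM on control food). The Malpighian tubule marker *Uro* was higher on HA food, at 34.0 FPKM against 26.3 FPKM on control food, and the other, *CapaR*, was under 1 FPKM. Of the 6 ovary markers 4 were higher on HA food, with a median log2 ratio of 0.20. The part of these markers in the ratios of the *Gst* and *Ugt* genes was not tested.

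*GstD1* was the only member listed by symbol in all 3 species. In *D. simulans* (FBgn0012838; 3R, 12916844 to 12920034 of ASM75419v3) it had 586 FPKM on HA food and 633 FPKM on control food. The log2 ratio of -0.11 lies at percentile 51.8 of the 9352 genes measured there, whose median is -0.12. In *D. sechellia* (FBgn0012785; scaffold_0, 13753265 to 13753894 of dsec_caf1) it had 1381 FPKM on HA food and 1293 FPKM on control food, a log2 ratio of 0.10 at percentile 64.5 of 12109 measured genes with a median of 0.02. In *D. melanogaster* (FBgn0001149; 3R, 12367817 to 12369268) its log2 ratio of -0.18 lies at percentile 27.9. After subtraction of the median of all genes in each species, the log2 ratio was 0.07 for *D. sechellia*, 0.01 for *D. simulans* and -0.19 for *D. melanogaster*. The gene was far from 1.5-fold in each species, beside 7.38% lower and 1.37% higher genes in *D. simulans* and 4.73% lower and 6.62% higher genes in *D. sechellia*. With 1 pooled value per diet the difference between the species was not tested. FPKM levels were normalized separately in each species and are not compared between them. Within each species *GstD1* ranked 337th of 12109 measured genes in *D. sechellia*, 303rd of 9352 in *D. simulans* and 167th of 10427 in *D. melanogaster*. These ranks are over different gene sets and are not compared either.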

How the data were processed

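Whole-female RNA was sequenced after poly-A selection as single-end reads, which were longer for *D. sechellia* than for the other species and so cannot be separated from species. Per their methods and processing notes, the authors used FastQC for read quality and Bowtie2 for alignment (Ensembl assemblies BDGP6, ASM75419v3 and dsec_caf1), and ran Cuffdiff once per species with geometric normalization and bias correction; tool versions are not given in the sources used here. Each deposited table holds 1 FPKM value per gene and diet, pooled by the authors over 3 libraries. The read depth behind a value is not part of these tables, so precision is unknown. The tables also hold a status and the authors' own comparison (fold change, statistic, p and q), which were not used.

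From FPKM, the log2 ratio of HA over control was computed with a pseudocount of 0.1 for genes with a mean of at least 1 FPKM, which understates the ratios of weak genes. Counts use a limit of 1.5-fold. Members, gene lists and limits were chosen with earlier results of these data known. Named genes are those past 1.5-fold and, in each class, the strongest and those with the extreme ratios; others, including the split at 5 FPKM, were chosen after their values were seen. Loci are those of the tables, with starts counted from 1; 51 of 52 members lie inside them in the Ensembl release 115 annotation of BDGP6, which also gave strand, exons and current symbols. Arrays are runs of members with gaps of up to 20 kb. Alternatives were other pseudocounts, minimums, limits, centring and removal of shared loci. The code for the ratio and counts was run on simulated data with planted changes of 2-fold and the same small noise at every level. That run checks the code only and gives no measure of the error of weak genes. Python 3.11.15, pandas 2.3.3, NumPy 2.4.6, SciPy 1.17.1 and matplotlib 3.10.9 were used.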

Additional observations from a re-analysis of the deposited data

How the results depend on the processing

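No paired analysis was possible because each table holds 1 value per diet, pooled over the libraries, and for the same reason no library could be left out. The median log2 ratio of the *Gst* genes moved by less than 0.05 under every alternative tried, and that of the *Ugt* genes was -0.21 with no minimum level and -0.13 with a minimum mean of 5 FPKM. The single *Gst* gene past 1.5-fold gave way to 0 with a minimum of 5 FPKM and 0 at a limit of 2-fold, and there were 8 at a log2 limit of 0.32. With no minimum 1 *Gst* gene, *GstD6*, was at least 1.5-fold higher. The single *Ugt* gene past 1.5-fold gave way to 0 with a pseudocount of 1 FPKM, 0 with a minimum of 5 FPKM and 0 at 2-fold, and there were 2 with no minimum and 5 at a log2 limit of 0.32. With a pseudocount of 1 FPKM the log2 ratio was -0.67 for *GstD11* and -0.53 for *Ugt86Dd*. For the *Ugt* family under all names, 4 genes past 1.5-fold became 1 with a pseudocount of 1 FPKM and 0 with a minimum of 5 FPKM, and the median became -0.37 without genes at shared loci; these alternatives, and those for single genes, were added after seeing the data. In *D. simulans* the log2 ratio of *GstD1* was -0.11 as measured and 0.01 after centring on the median of all genes, so its sign depends on that choice. Depth limits the weak genes most, and how far cannot be told from pooled values.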

Other observations

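The 8 members with a mean under 1 FPKM entered no count of measured members, and only the alternatives with no minimum level used them. *GstD6* had 0.339 FPKM on HA food and 0.149 FPKM on control food. The others were *Ugt* genes: *Ugt86Di* (0.929 FPKM on HA, 0.716 FPKM on control food), *Ugt36Bb* (0.222 FPKM on HA, 0.145 FPKM on control food) and *Ugt86De* (0.218 FPKM on HA, 0.133 FPKM on control food) were higher on HA food. *Ugt36Ba* (0.628 FPKM on HA, 0.736 FPKM on control food), *Ugt86Dg* (0.452 FPKM on HA, 0.556 FPKM on control food), *Ugt37a1* (0.269 FPKM on HA, 0.454 FPKM on control food) and *Ugt37c1* (0.0501 FPKM on HA, 0.111 FPKM on control food) were lower. At these levels a few reads can set a ratio, and none is given.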
